A study of Larimichthys crocea with 2 samples.

Results

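The RNA exosome is the protein complex that trims and degrades RNA from the 3′ end in the nucleus and the cytoplasm of eukaryotic cells. Its genes were taken by protein name: every gene whose deposited description starts with "Exosome complex" or "Exosome component". That gave 11 genes of the 22321 in the expression table, with 1 gene for each subunit. The names use no measured value, but the complex was selected on the RPKM of these same 2 libraries with earlier results known. The counts and medians below therefore describe it and are no support for a change in it. The RNA came from muscle of a marine fish, the large yellow croaker (Larimichthys crocea), with no genotype or strain stated. There was 1 library from fish fasted for 21 days and 1 control library from fish without treatment. How many fish went into each library, and which muscle was taken, is not stated in the labels. Each group being 1 library, the differences below have no replicate check, and none carries a p-value.

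The core of the exosome is a ring of 6 subunits that resemble the bacterial enzyme RNase PH, topped by a cap of 3 subunits with RNA-binding folds. In yeast and human the ring and cap cut no RNA themselves but hold the strand and thread it through a central channel. The cutting is done by RRP44, also called DIS3, at the bottom of the ring, and by EXOSC10, called RRP6 in yeast, at the top. The nuclear exosome matures ribosomal, small nuclear and small nucleolar RNAs and removes faulty transcripts, and the cytoplasmic one degrades messenger RNA that has lost its poly(A) tail.

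All 11 subunit genes had higher values in the fasted library than in the control library. Levels are given in RPKM, which are reads scaled for gene length and library size and so can be compared between genes. The median of the 11 was 8.50 RPKM in the fasted library and 2.16 RPKM in the control library. Summed over the 11, the level was 243 RPKM in the fasted and 38.7 RPKM in the control library, a 6.27-fold difference as deposited. Behind these values stood 5712 reads in the fasted library and 1003 in the control library, from 44 to 1808 per gene in the fasted and from 8 to 234 in the control. The 11 genes lie on 11 different scaffolds, and no other listed gene overlaps any of them on either strand. Of the 17 genes that the files annotate with a gene ontology term of the exosome, these were 11, and the other 6 included MPP6, C1D and DIS3L, which are described with the cofactors. The rest of the 6 went both ways. Calcium-regulated heat stable protein 1 had 8.43 RPKM in the fasted and 11.6 RPKM in the control library. GTP-binding protein 1 had 9.60 RPKM in the fasted and 4.94 RPKM in the control library for gene916, and 0.367 and 0.709 RPKM for gene899.

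A ratio here is the log2 of fasted over control RPKM, each with a pseudocount of 0.5 added, and is given relative to the median gene. That median was 0.48 as deposited, over 11417 genes averaging 1 RPKM or more, so a ratio between -0.48 and 0 here is above 0 as deposited. All 11 exosome genes passed this minimum, but RRP4, RRP46 and MTR3 were under 1 RPKM in the control library and passed through their fasted values. On this scale 9 of the 11, RRP46 and MTR3 among them, were at least 2-fold higher in the fasted library and 0 at least 2-fold lower. Of all genes compared, 16.1% were higher by this measure and 16.6% lower. All 11 subunits were above the median gene, beside 50% of all genes. The median ratio of the 11 was 1.41, beside quartiles of -0.67 and 0.66 over all genes. With RPKM as deposited, 10 of the 11 were at least 2-fold higher, beside 29.7% of all genes, and 0 lower, beside 8.88%. Counts and median ratios as deposited are not centred but keep the pseudocount, whereas folds as deposited have none. The gene outside these 10 was RRP4, which was 2.07-fold higher in RPKM without the pseudocount. Among the 9287 genes whose mean RPKM lay within the range of the subunits, 1.39 to 50.6, 15.2% were at least 2-fold higher on the centred scale. In bulk tissue, a change in the share of cells and a change in RNA per cell cannot be told apart.

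**Figure D1:**
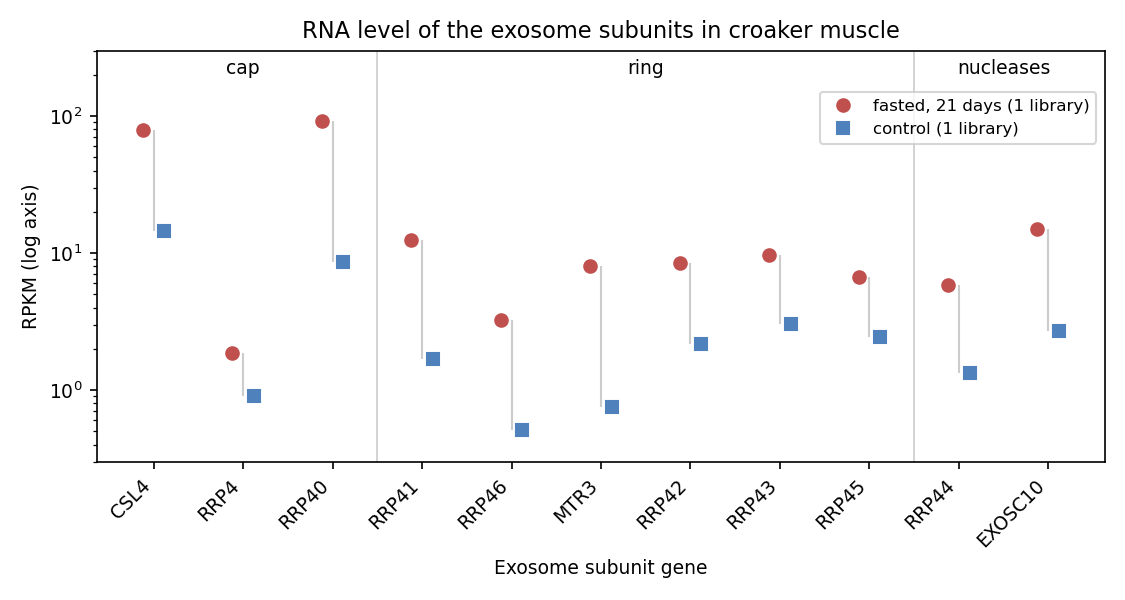
RPKM on a log axis for each exosome subunit gene, with the fasted library as circles and the control library as squares, 1 library each, and a grey line spanning the difference. Every circle stands above its square. CSL4 and RRP40 stand apart from the rest at 79.1 and 92.5 RPKM in the fasted library, and RRP4 is the lowest circle at 1.88 RPKM.

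The 3 cap subunits held the highest level of each library and the lowest of the fasted library. RRP40 (exosc3, gene22039), which binds RNA through its S1 and KH folds and in human is a disease gene of pontocerebellar hypoplasia, had 92.5 RPKM in the fasted library and 8.65 RPKM in the control library. Its ratio was 2.86, the largest of the 11, or 7.27-fold relative to the median gene. Only 84 of the 11417 genes compared, 0.736%, had a ratio as high. The gene lies on scaffold NW_011324239.1, bases 25129 to 26209, minus strand, with 1808 fasted and 175 control reads. The interval of its log2 read ratio ran from 2.71 to 3.17. Such intervals are 95% exact Clopper-Pearson intervals on the reads, centred on the same median, have no pseudocount and cover counting error only.

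CSL4 (exosc1, gene12229, NW_011322886.1:391086-393571, plus strand), the other abundant cap subunit, had 79.1 RPKM in the fasted library and 14.5 RPKM in the control library. Its ratio was 1.92, from 1230 fasted and 234 control reads (counting interval 1.76 to 2.17). RRP4 (exosc2, gene955, NW_011322438.1:1727560-1730326, plus strand), the last cap subunit and a relative of RRP40 in fold, had 1.88 RPKM in the fasted library and 0.906 RPKM in the control library. It was the subunit with the smallest ratio, 0.27, and its 44 fasted and 22 control reads gave a counting interval of -0.20 to 1.38, which includes the median gene. Of all genes compared, 38.7% had a ratio as high as that of RRP4 or higher. The pseudocount weighs on this low gene, and its read ratio without one was 0.57. The counting interval also includes 2-fold, so the reads do not settle how far RRP4 lay from the median gene.

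The ratios within the cap were unequal beyond counting error. In a comparison of 2 genes the scaling of the libraries cancels. The read ratio of RRP40 exceeded that of CSL4 by 0.97 on the log2 scale (counting interval 0.67 to 1.29) and that of RRP4 by 2.37 (1.52 to 3.17). In RPKM, RRP40 RNA was 1.17 times the level of CSL4 in the fasted library and 0.595 times that level in the control library. RRP40 RNA was 49.3 times RRP4 in the fasted library and 9.55 times RRP4 in the control library. Together RRP40 and CSL4 made up 70.6% of the summed RPKM of the complex in the fasted library and 59.9% in the control library. Without these 2 genes the summed level was 71.3 RPKM in the fasted and 15.5 RPKM in the control library, 4.59-fold as deposited.

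The 6 ring subunits were closer together. They ranged from 3.25 to 12.4 RPKM in the fasted library and from 0.513 to 3.05 RPKM in the control library. Of the 6, 5 were at least 2-fold higher in the fasted library, with a median ratio of 1.34. In yeast and human the ring is built from pairs, in each of which a subunit of the RRP41 type sits beside one of the RRP42 type. Both types resemble RNase PH. The values are given by pair, a grouping chosen after they were seen.

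In the first pair, RRP41 (exosc4, gene15684, NW_011323184.1:363640-366413, minus strand) had 12.4 RPKM in the fasted library and 1.67 RPKM in the control library, with 244 fasted and 34 control reads. Its ratio was 2.09 (counting interval of the read ratio 1.89 to 2.97). RRP45 (exosc9, gene758, NW_011322435.1:1189846-1193920, minus strand), its partner, had 6.72 RPKM in the fasted library and 2.43 RPKM in the control library, with 232 fasted and 87 control reads. Its ratio of 0.82 (counting interval 0.62 to 1.35) was under 2-fold. RRP41 RNA was thus above RRP45 RNA in the fasted library and below it in the control library.

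In the next pair, RRP46 (exosc5, gene18245, NW_011323488.1:34-1379, plus strand) had 3.25 RPKM in the fasted library and 0.513 RPKM in the control library. It was the lowest subunit of the control library by RPKM. Its ratio was 1.41, and its read ratio without the pseudocount was 2.18. With only 49 fasted and 8 control reads, the counting interval of that read ratio ran from 1.09 to 3.47. The annotated gene starts at base 34 of its scaffold, at the edge of the assembled sequence. RRP43 (exosc8, gene12563, NW_011322906.1:394413-397306, plus strand), its partner, had 9.60 RPKM in the fasted library and 3.05 RPKM in the control library, with 213 fasted and 70 control reads. At a ratio of 1.03 it lay just past 2-fold, and its counting interval of 0.78 to 1.58 includes 2-fold. It was under 2-fold with a pseudocount of 1 RPKM (0.96), with RPM in place of RPKM (0.98) and with a minimum mean of 5 RPKM (0.77).

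In the last pair, MTR3 (exosc6, gene13442, NW_011322974.1:90245-93396, plus strand) had 7.99 RPKM in the fasted library and 0.746 RPKM in the control library, with 176 fasted and 17 control reads. As deposited that is 10.7-fold, the same as for RRP40. Its ratio of 2.29 is smaller because the pseudocount weighs more on a low gene, and its read ratio without one was 2.94 (counting interval 2.22 to 3.75). RRP42 (exosc7, gene7264, NW_011322612.1:550801-553947, plus strand), its partner, had 8.50 RPKM in the fasted library and 2.16 RPKM in the control library, with 198 fasted and 52 control reads. Its ratio was 1.28 (counting interval 1.05 to 1.97).

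In each of the 3 pairs the RRP41-type subunit had the larger ratio. The read ratio of RRP41 exceeded that of RRP45 by 1.43 on the log2 scale (counting interval 0.78 to 2.10), and that of MTR3 exceeded that of RRP42 by 1.44 (0.56 to 2.38). For RRP46 over RRP43 the difference was 1.01, with an interval of -0.17 to 2.37 that includes 0. In the control library the RRP41-type subunits, at 0.513 to 1.67 RPKM, all lay below the RRP42-type subunits, at 2.16 to 3.05 RPKM. In the fasted library the types overlapped, at 3.25 to 12.4 RPKM for the RRP41 type and 6.72 to 9.60 RPKM for the RRP42 type. The highest ring subunit stood at 3.83 times the lowest in the fasted library and at 5.95 times the lowest in the control library.

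**Figure D2:**
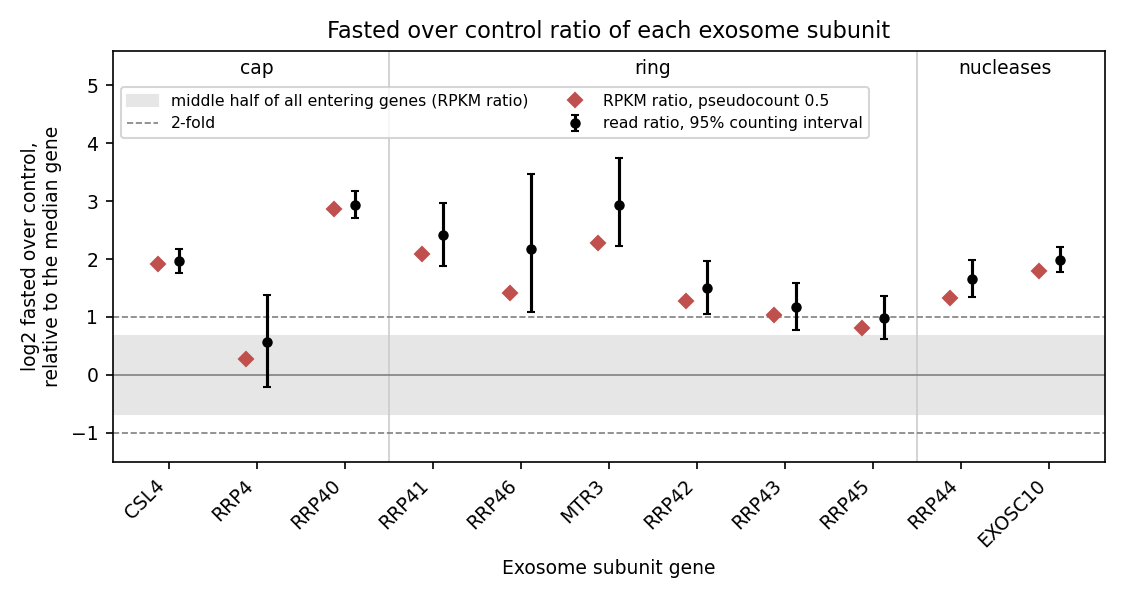
The log2 ratio of fasted over control for each exosome subunit, relative to the median gene: diamonds for RPKM with a pseudocount of 0.5, and circles for reads without one, with bars for the 95% counting interval. The grey band is the interquartile range of the 11417 genes compared and the dashed lines mark 2-fold. RRP4 lies in the band at 0.27, RRP45 at 0.82 and RRP43 at 1.03 lie near 2-fold, and RRP40 is the highest diamond at 2.86.

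Both nucleases of the complex were at least 2-fold higher in the fasted library. EXOSC10 (gene4433, NW_011322522.1:490494-503206, plus strand), the nuclear exonuclease that trims the 3′ end of 5.8S ribosomal RNA precursors, had 15.1 RPKM in the fasted library and 2.72 RPKM in the control library. With 1073 fasted and 200 control reads its ratio was 1.79 (counting interval 1.77 to 2.22). RRP44 (dis3, gene13189, NW_011322956.1:251071-259664, plus strand), the processive exonuclease and endonuclease of the complex, had 5.86 RPKM in the fasted library and 1.32 RPKM in the control library. With 445 fasted and 104 control reads its ratio was 1.32 (counting interval 1.35 to 1.99, above the ratio because the reads carry no pseudocount). The read ratio of EXOSC10 exceeded that of RRP44 by 0.33, with an interval of -0.07 to 0.71 that includes 0. EXOSC10 RNA stood at 2.57 times RRP44 in the fasted library and 2.05 times in the control library.

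The order of the subunits by RPKM was similar in the 2 libraries. CSL4 and RRP40 held the top 2 ranks in both, with RRP40 first in the fasted library and CSL4 first in the control library. EXOSC10 ranked 3 of 11 in the fasted library and 4 in the control library, and RRP41 ranked 4 in the fasted and 7 in the control library. Across the 11 genes, log2 RPKM in the fasted library and in the control library had a Pearson r of 0.895 and a Spearman rho of 0.818. This is a description over genes that share both libraries. How far neighbours in this order differ beyond the spread between fish cannot be given, since each group is 1 library.

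The authors' deposited table calls all 11 genes higher in the fasted library. It does the same for 30.3% of its 16883 genes, and calls 14.5% lower. The fold changes in the authors' deposited table run from 2.07 for RRP4 to 10.7 for RRP40 and MTR3 and are not centred. The labels do not say how it made p-values without replicates. For 12136 genes, RRP4 and RRP46 among them, the authors' deposited table has an adjusted p smaller than the unadjusted one, so the calls and folds alone are described.

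The tables of transcript events hold a further quantification of the same reads, in FPKM (fragments scaled for length and library size) of the assembled transcripts that carry a given first or last exon. First-exon FPKM of RRP40 was 40.2 in the fasted library and 2.35 in the control library, a 17.1-fold difference, against 10.7-fold in RPKM. The last exon of RRP40 was listed at 40.2 FPKM in the fasted library and at 3.20 FPKM in the control library, above the first exon there. The FPKM fold of RRP40 is therefore smaller when taken from its last exon. CSL4 had a first-exon FPKM of 64.0 in the fasted library and 12.9 in the control library, and EXOSC10 had 9.80 in the fasted library and 1.96 in the control library. By first-exon FPKM CSL4 was thus above RRP40 in both libraries, whereas by RPKM RRP40 was first in the fasted library. In the control library RRP46, the lowest by RPKM, had 0.785 FPKM, above MTR3 at 0.657 and RRP4. The order of levels therefore depends on the measure. RRP4 had the smallest fold, with 0.949 FPKM in the fasted library and 0.422 in the control library. Relative to the median of 7613 genes averaging 1 FPKM or more, 9 of the 10 subunits that met this minimum were at least 2-fold higher in the fasted library and 0 lower. Of all genes in that comparison 21.7% were at least 2-fold higher and 21.5% lower. RRP4 was under the minimum, RRP44 lay at the 2-fold line with 1.00, and RRP45 was under that line with 0.74. RRP44, RRP46 and MTR3, all counted as higher, were under 1 FPKM in the control library and met the minimum through their fasted values.

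**Figure D3:**
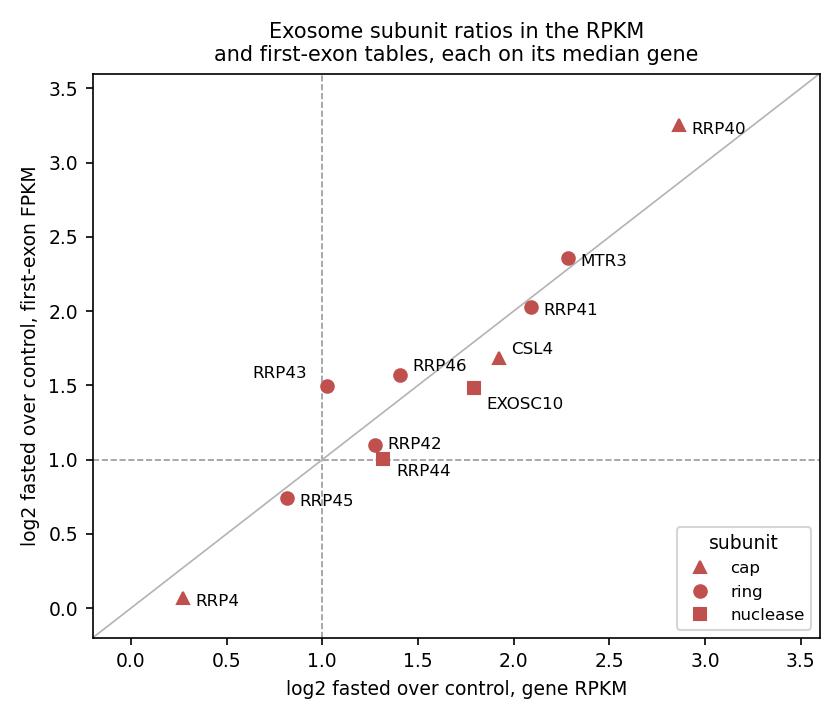
Each exosome subunit by its log2 ratio of fasted over control in gene RPKM (x axis) and in first-exon FPKM (y axis), each relative to the median gene of its own table. Triangles are cap, circles ring and squares nuclease subunits, dashed lines mark 2-fold and the diagonal marks equal ratios. The points follow the diagonal from RRP4 at 0.27 and 0.07, which was under the minimum of the first-exon comparison, to RRP40 at 2.86 and 3.25. RRP43 is above the diagonal at 1.03 and 1.49.

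No skipped exon, retained intron or alternative exon end was listed for any of the 11 genes, with 0 such events in the fasted and 0 in the control library. Of all named genes with any event, 15.8% had such an event in the fasted library and 14.9% in the control library. A further first exon of RRP40 was listed at 0 FPKM in both libraries. The last exons of 3 genes differed between the libraries. RRP43 had 2 last exons in the fasted library: the annotated one at bases 397188 to 397306 of scaffold NW_011322906.1 with 5.68 FPKM, and an earlier one at bases 395833 to 395858 with 4.77 FPKM. In the control library the earlier one was not listed, and RRP43 had 1 last exon, which ran 664 bases past the annotated end, with 2.10 FPKM. The last exon of CSL4 ran past the annotated end in both libraries, by 1055 bases in the fasted and 1047 bases in the control library. That of RRP40 ended as annotated in the fasted library and ran 223 bases past it in the control library. At 70 to 175 control reads for RRP43 and RRP40, a form missing from a list cannot be told apart from one that was too rare to assemble.

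Genes beside the subunits had ratios of both signs. Of 15 neighbouring genes that met the RPKM minimum, 4 were at least 2-fold higher in the fasted library and 2 lower by the same measure, beside 16.1% and 16.6% of all genes. The median ratio of the 15 was 0.15. TBC1 domain family member 9B, which lies 1375 bases from RRP40 on the same strand, had 3.93 RPKM in the fasted library and 2.0 RPKM in the control library (ratio 0.34). The neighbour of CSL4 on one side, phosphoglycerate mutase 1, had 8.36 RPKM in the fasted library and 11.1 RPKM in the control library (-0.87). On the other side lysine-rich nucleolar protein 1 had 9.0 RPKM in the fasted library and 1.49 RPKM in the control library (1.77).

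Of 15 genes named for cofactors that bring RNA to the nuclear exosome, 11 met the RPKM minimum. Of these, 3 were at least 2-fold higher in the fasted library, beside 16.1% of all genes, and 0 lower, with a median ratio of 0.58. As deposited, 6 of these 11 were at least 2-fold higher, with a median of 1.06, beside 29.7% of all genes on that scale. NOP53, annotated as glioma tumor suppressor candidate region gene 2 protein, recruits the exosome to pre-ribosomes in yeast. The gene had 159 RPKM in the fasted library and 12.3 RPKM in the control library, a ratio of 3.16 (counting interval 3.09 to 3.34), above that of every subunit. The other 2 were a gene of ZCCHC7, the zinc-knuckle partner of the TRAMP polyadenylation complex, and MPP6. This ZCCHC7 gene (gene12057) had 21.4 RPKM in the fasted library and 3.19 RPKM in the control library (ratio 2.09). MPP6, an RNA-binding protein that tethers the MTR4 helicase to the exosome, is annotated as M-phase phosphoprotein 6 and had 8.41 RPKM in the fasted library and 1.87 RPKM in the control library (1.43).

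The other nuclear cofactors that met the minimum lay within 2-fold on the centred scale, which carries the pseudocount. MTR4, the helicase that unwinds RNA for the nuclear exosome, is annotated as superkiller viralicidic activity 2-like 2 and had 4.78 RPKM in the fasted library and 2.55 RPKM in the control library, a ratio of 0.31. The read ratio of EXOSC10 exceeded that of MTR4 by 1.57 on the log2 scale (counting interval 1.24 to 1.90). C1D, a partner of EXOSC10, had a ratio of 0.71 and the other ZCCHC7 gene (gene19801) 0.58. This ZCCHC7 gene had 1.67 RPKM in the fasted and 0.538 RPKM in the control library, and met the minimum through its fasted value. Its read ratio without the pseudocount was 1.15 (counting interval 0.42 to 1.94), past 2-fold. In the NEXT complex, which hands short-lived nuclear transcripts to MTR4, RNA-binding protein 7 had a ratio of 0.65 and ZCCHC8 -0.07. In the connection to polyadenylated nuclear RNA, the zinc finger C3H1 protein had 0.07 and polyadenylate-binding protein 2 had 0.20. The noncanonical poly(A) polymerase PAPD5 had -0.10. The 3 genes of PAPD7 and the other gene of polyadenylate-binding protein 2 were under a mean of 1 RPKM.

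In the cytoplasm the SKI complex unwinds messenger RNA and feeds it into the exosome. Of 5 genes of SKI and ribosome rescue, 3 were at least 2-fold higher in the fasted library, beside 16.1% of all genes, and 0 lower, with a median ratio of 1.13. As deposited, 4 of the 5 were higher by this measure, beside 29.7% of all genes. The SKI helicase SKI2W had 5.95 RPKM in the fasted library and 1.28 RPKM in the control library (ratio 1.37). Its scaffold TTC37 had 3.44 RPKM in the fasted library and 1.06 RPKM in the control library (0.86), and its WD repeat subunit WDR61 had 32.7 RPKM in the fasted library and 8.19 RPKM in the control library (1.45). The read ratio of TTC37 without the pseudocount was 1.22 (counting interval 0.94 to 1.51), past 2-fold. HBS1-like, a relative of translation release factors, had a ratio of 1.13. Pelota, its partner in freeing stalled ribosomes, had 10.4 RPKM in the fasted library and 9.0 RPKM in the control library, with a ratio of -0.29. The read ratios of RRP44 and SKI2W differed by -0.07 (counting interval -0.49 to 0.36).

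The relatives of RRP44 outside the exosome core had smaller ratios than RRP44. DIS3L, which takes the place of DIS3 on the cytoplasmic exosome in human, had 2.62 RPKM in the fasted library and 0.875 RPKM in the control library (ratio 0.70). DIS3L2, which degrades uridylated RNA without the exosome, had 3.47 RPKM in the fasted library and 1.96 RPKM in the control library (0.21). The read ratio of RRP44 exceeded that of DIS3L by 0.56 (counting interval 0.05 to 1.07) and that of DIS3L2 by 1.32 (0.90 to 1.75). Of 4 genes for the nuclear cap-binding complex and its adaptor ARS2, 0 were past 2-fold, beside 16.1% of all genes higher and 16.6% lower. Their ratios ran from -0.03 for an ARS2 gene, annotated as serrate RNA effector molecule homolog, to 0.81 for cap-binding subunit 2. As deposited, 1 of the 4, cap-binding subunit 2, was at least 2-fold higher, beside 29.7% of all genes.

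The pre-ribosomal RNA factors act on the same precursors as the nuclear exosome. Of 14 genes of the U3 small nucleolar particle, the box C/D core and the PeBoW complex, 13 were at least 2-fold higher in the fasted library, beside 16.1% of all genes, and 0 lower, with a median of 1.49. As deposited, all 14 were higher by this measure, beside 29.7% of all genes. The lowest was UTP15 at 0.96 and the highest UTP18, with 74.0 RPKM in the fasted library and 5.02 RPKM in the control library (3.27). Pescadillo, of PeBoW, had 31.5 RPKM in the fasted library and 5.24 RPKM in the control library (2.0), and fibrillarin, the methyltransferase of box C/D particles, had 38.4 RPKM in the fasted library and 10.8 RPKM in the control library (1.30).

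In each of the other routes of RNA decay, 1 to 3 genes were at least 2-fold higher, to be read beside 16.1% of all genes. Deadenylation shortens poly(A) tails before the exosome acts. The list of deadenylases and other subunits of their complexes had 3 of 18 genes at least 2-fold higher and 0 lower (median 0.26), a share near the 16.1% of all genes. The 3 were genes of CCR4-NOT subunits 2 (1.74), 4 (1.10) and 11 (1.86). Another gene of subunit 2 (gene22221) had a ratio of 0.15, and another of subunit 4 (gene23669) had 0.59. The genes of CCR4-NOT subunits 6, 6-like, 7 and 8, PAN2 and PARN lay within 2-fold with the pseudocount. The read ratio of PAN2 without it was 1.03. The lowest ratio of the list was -0.84 for CCR4-NOT subunit 6, and the highest was that of CCR4-NOT subunit 11, with 64.2 RPKM in the fasted library and 12.2 RPKM in the control library. The list of decapping factors and LSM proteins, most of which act in the 5′ route, had 1 of 13 entering genes higher and 0 lower (median 0.34), from -0.26 for the decapping enzyme DCP2 to 1.06 for EDC4. The 13 include LSm8 (-0.15), which is not part of the LSM ring of decapping. Of the 5′-to-3′ exoribonucleases, XRN1 had a ratio of 0.17 and the 2 genes of XRN2 had 0.67 and 1.03. In nonsense-mediated decay 2 of 9 entering genes were higher, beside 16.1% of all genes, and 0 lower (median 0.68). These were SMG8 at 2.03 and UPF3B at 2.07, and the lowest was a UPF1 gene at -0.45. With RPKM as deposited, 6 of the 18 genes of the deadenylase list, 3 of the 13 of the decapping list, 2 of the 3 exoribonucleases and 6 of the 9 genes of nonsense-mediated decay were at least 2-fold higher, beside 29.7% of all genes on that scale. Whether any of these lists differs from the subunits could not be tested with 1 library per group.

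**Figure D4:**
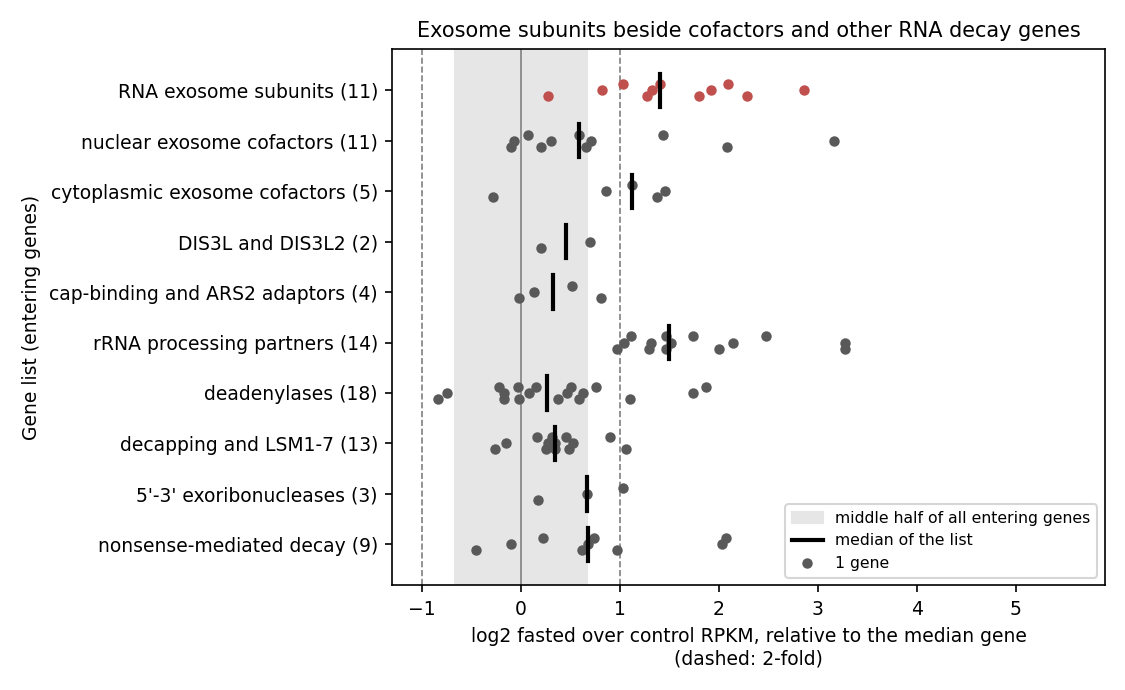
The log2 ratio of fasted over control RPKM, relative to the median gene, for the exosome subunits (top) and for cofactor and RNA decay lists, 1 point per gene that met the RPKM minimum and a bar at the list's median. The number of genes is beside each name, the grey band is the interquartile range of all genes compared and the dashed lines mark 2-fold. The subunits (median 1.41) and the pre-ribosomal RNA factors (1.49) lie mostly past 2-fold, and the medians of the deadenylase list (0.26) and the decapping list (0.34) lie in the band.

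Reads in listed genes numbered 26593839 in the fasted library and 27519918 in the control library. The top 20 genes held 43.9% of the fasted reads and 59.1% of the control reads. The 27 skeletal muscle marker genes summed to 237362 RPKM in the fasted and 436120 RPKM in the control library. Of 22 entering genes 1 was at least 2-fold higher and 12 lower, beside 16.1% and 16.6% of all genes. As deposited 4 were higher and 8 lower, beside 29.7% and 8.88%. These markers went both ways, with 7 of the 22 above the median gene. A fast myosin heavy chain gene (gene23811) had 34088 RPKM in the fasted and 13876 RPKM in the control library. A parvalbumin beta gene (gene3887) had 40557 RPKM in the fasted and 147098 RPKM in the control library, and alpha skeletal actin (gene5086) had 55199 and 115733 RPKM. Markers of other cell types differed as well. Summed hemoglobin genes stood at 44.7 RPKM in the fasted and 568 RPKM in the control library (8 of 8 entering genes at least 2-fold lower). Connective tissue genes stood at 169 RPKM in the fasted and 788 RPKM in the control library (7 of 8 lower). Keratin, desmoplakin, envoplakin and periplakin genes, listed for skin, stood at 438 RPKM in the fasted and 1891 RPKM in the control library (7 of 10 lower). These counts stand beside 16.6% of all genes. As deposited, 8 of 8, 6 of 8 and 6 of 10 were lower, beside 8.88%, and 1 gene of the skin list was higher. A hemoglobin beta gene (gene3729) and the keratin genes gene14975 and gene195 were under 1 RPKM in the fasted library and met the minimum through their control values. Of 3 fat cell genes, which summed to 0.203 RPKM in the fasted and 66.1 RPKM in the control library, 1 was lower and the other 2, adiponectin among them, were listed at 0 in both libraries. The lower one, a CIDE-3 gene (gene17055), met the minimum through its control value. Immune cell genes summed to 13.3 RPKM in the fasted and 10.04 RPKM in the control library, with 0 of 5 entering genes past 2-fold on the centred scale. As deposited, 2 of the 5 were at least 2-fold higher, beside 29.7% of all genes, and 0 lower. These were macrophage mannose receptor genes (gene13835 and gene10671), which met the minimum through their fasted values. Genes of dividing cells summed to 13.7 RPKM in the fasted and 6.50 RPKM in the control library. Of 15 such genes 13 were under a mean of 1 RPKM, and of the other 2, MCM7 was higher (ratio 1.64) and PCNA was at -0.10. MCM7 had 4.14 RPKM in the fasted and 0.564 RPKM in the control library, and so met the minimum through its fasted value. The part of these cell types in the exosome values was not tested.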

How the data were processed

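RNA from muscle was isolated using Trizol and prepared with an Illumina TruSeq kit, per the labels' protocols. HTSeq, SAMtools 0.1.19, TopHat and TopHat2 2.0.12 appear in the submitters' processing notes without a stated role. No build, annotation release or strand setting is named, and scaffold positions follow the files. The authors deposited RPKM per gene, scaled by gene length and library size. Their comparison table holds deposited RPM, each library summing to the same total. Its deposited fold change is the linear ratio of fasted over control RPM, per the file headers, and its log2 fold change, also made by the authors, is the log2 of that ratio. The p-values in it were made by the authors with a test that is not stated. The event tables, 1 per library, hold FPKM that the authors made for assembled transcripts, per the file headers. Tables that repeat these values, lists of unannotated exons and counts per ontology term were not used.

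Whole reads were recovered from the deposited RPM, which for genes with reads are multiples of 1 step per library: within a tolerance of 0.1 read, 100% of 16599 fasted and 16725 control values came out whole. The other 284 fasted and 158 control values are a small filler, the same for every such gene of a library, and were read as 0 reads. A count test could not be run on them with 1 library per group. Ratios used a pseudocount of 0.5 RPKM, which understates the change of low genes, a minimum mean of 1 RPKM, and centring on the median gene where that median lay over 0.1 from 0. Genes were called at 2-fold, and 95% intervals (Clopper-Pearson for 1 gene, exact conditional odds ratio for 2) cover counting error only. Without molecular identifiers, PCR copies count as separate reads.

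The genes of the complex and the lists were chosen with earlier results of these data known. Every exosome gene is named. Of the other lists, all genes of the cofactor and DIS3 lists and the highest and lowest of the rest were to be named. The text adds SMG8, PCNA, MCM7, pescadillo, fibrillarin, adiponectin, LSm8, further deadenylation genes, muscle markers, genes with an exosome ontology term and neighbouring genes. These additions were chosen after their values were seen. With 2 libraries a pattern is 1 ratio, so no gene is named for likeness. Gene symbols are those of the event tables at the same position, and all 11 are also in RefSeq's gene table for the species. The steps were tested on simulated data. Alternatives covered pseudocount, filter, scaling, reads in place of RPKM, the size of a call and first-exon FPKM, the last chosen after seeing the data. Computation used Python 3.11.15, numpy 2.4.6, scipy 1.17.1 and matplotlib 3.10.9.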

Additional observations from a re-analysis of the deposited data

How the results depend on the processing

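The ratio of each exosome subunit was above 0 in all 93 values computed under 9 alternatives, and 71 of these moved by no more than the width of the counting interval on that side. For the subunits, the alternatives with no filter and with RPKM as deposited are the same computation, so their values are counted in duplicate here. The count of subunits at least 2-fold lower was 0 in every alternative run, and the count at least 2-fold higher ran from 8 to 10 (of 11, or of 10 in first-exon FPKM) except in 2 of them. With a minimum mean of 5 RPKM it was 5 of the 6 genes left, because fewer genes enter and the centring shift grows to 0.74. At 3-fold in place of 2-fold it was 5 of 11. The median ratio of 1.41 was 1.89 with a pseudocount of 0.1 RPKM, 1.89 when no gene was filtered out, which left nothing to centre, and 1.89 for RPKM as deposited. RRP43 was under 2-fold in 3 alternatives, at 0.77 with the minimum of 5 RPKM, 0.96 with a pseudocount of 1 RPKM and 0.98 with RPM. RRP4 ranged from 0.16 to 0.76, under 2-fold in each of its 7 values, all of which carry a pseudocount. Without one its fold in RPKM as deposited was 2.07. The medians of immune and dividing cell genes changed sign, to 0.07 with RPKM as deposited and to -0.36 with the minimum of 5 RPKM. For dividing cells the median rests on MCM7 and PCNA, and on PCNA alone with the minimum of 5 RPKM. No paired analysis was possible because each group has 1 library, and for the same reason no library could be left out. Depth limits RRP46, MTR3, RRP4 and RRP41 most, with 8 to 34 control reads.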
